A study of Mus musculus with 12 samples.

Results

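The genes that build cholesterol and fatty acids were followed in mouse T cells as 38 listed members, of which 37 were measured among 18193 genes on the array. The members were listed by gene symbol, with earlier results of these data known. Each is represented by the probe set (the group of oligos that reads 1 transcript) with the highest mean signal over the 12 arrays. Acat2, an acetyl-CoA acetyltransferase gene, had no probe set carrying its symbol alone and was not measured. All cells came from spleens of female C57BL/6 mice, aged 8 to 12 weeks by the sample records. The paper gives a younger range for the mice whose cells were cultured. Each of the 12 samples was run on its own Affymetrix mouse expression array. The 5 samples called NKT-like were cultures of splenic CD8+ T cells expanded with beads carrying anti-CD3 and anti-CD28 and with high dose IL-2. They carry the label of a suppression function. The 3 cultured CD4 samples were CD4+ T cells taken through the same expansion and labelled as less suppressive. The 2 activated CD8 samples were CD8+ T cells stimulated with soluble anti-CD3 and anti-CD28 at low dose, and the 2 naive CD8 samples were CD8+ T cells taken fresh from the spleen. Freshly isolated CD4+ T cells were not analysed here, so the lineage and the culture cannot be told apart in the comparison of cultured CD4 with naive CD8. The starting CD8+ cells were enriched by negative selection, which leaves some other spleen cells, whereas the CD4+ cells were flow sorted.

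Cholesterol is made from acetyl-CoA, which is joined to form mevalonate, then isoprenoid units, then squalene, and at last a sterol ring that a chain of enzymes trims to cholesterol. Fatty acid synthesis draws on the same acetyl-CoA and continues with elongases and desaturases that lengthen and kink the chains. Both pathways answer to the SREBP transcription factors, which sit in the endoplasmic reticulum with their escort SCAP, are held there by INSIG proteins when sterols are plentiful, and otherwise move on to be cut and enter the nucleus. When sterols build up, the liver X receptors switch on export pumps such as Abca1 and Abcg1. T cells that leave rest and divide need new membrane and are known to turn on SREBP-driven synthesis.

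The stretch before the transcription start is shown for 4 members, because it carries the letters that SREBP factors and their partners are known to read. RefSeq (mouse build GRCm38.p6) gave a start for 30 of the 38 members, in 40 windows since some genes have several starts. The windows hold the 250 bases before the start, written 5′ to 3′ on the strand of the gene. Capitals mark CCAAT, the box bound by NF-Y, or TCACNCCAC, a form of the sterol response element, on either strand. Cyp51 and Idi1 had some of the largest increases, and Abca1 was lower in NKT-like than in naive CD8 cells. Of the 30 members with a window, only Hmgcs1 had TCACNCCAC, and other forms of the element were not searched.
Cyp51 (chr5:4104698-4104947, minus strand): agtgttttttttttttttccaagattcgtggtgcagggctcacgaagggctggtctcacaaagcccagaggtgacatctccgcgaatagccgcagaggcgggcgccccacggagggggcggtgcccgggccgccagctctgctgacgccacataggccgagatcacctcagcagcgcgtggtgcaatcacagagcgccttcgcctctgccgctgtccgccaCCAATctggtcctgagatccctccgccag
Idi1 (chr13:8885356-8885605, plus strand): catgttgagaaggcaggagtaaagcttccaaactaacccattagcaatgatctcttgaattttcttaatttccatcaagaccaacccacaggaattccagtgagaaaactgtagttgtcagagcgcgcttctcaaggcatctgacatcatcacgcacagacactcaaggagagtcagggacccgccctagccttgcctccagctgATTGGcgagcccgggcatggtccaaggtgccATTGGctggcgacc
Hmgcs1 (chr13:119690101-119690350, plus strand): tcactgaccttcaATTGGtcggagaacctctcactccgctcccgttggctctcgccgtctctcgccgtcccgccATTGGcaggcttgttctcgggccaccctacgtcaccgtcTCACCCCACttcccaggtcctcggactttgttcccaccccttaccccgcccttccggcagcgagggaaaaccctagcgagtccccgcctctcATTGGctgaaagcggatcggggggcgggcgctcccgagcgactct
Abca1 (chr4:53159896-53160145, minus strand): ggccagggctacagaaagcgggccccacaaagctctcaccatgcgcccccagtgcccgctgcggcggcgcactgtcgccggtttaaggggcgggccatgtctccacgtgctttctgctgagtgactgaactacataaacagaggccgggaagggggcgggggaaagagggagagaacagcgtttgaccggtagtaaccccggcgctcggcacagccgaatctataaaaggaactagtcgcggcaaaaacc
In Hmgcs1 this form of the sterol response element began 137 bases before the start, with CCAAT on the opposite strand at 237, 176 and 45 bases before the start. Cyp51 had CCAAT at 29 bases before the start, and Idi1 had it on the opposite strand at 45 and 14 bases. Neither motif occurred in the Abca1 window. CCAAT was present in 24 of the 40 member windows (60%), against 33.8% of all 32851 windows. TCACNCCAC was present in 1 of 40 (2.5%), against 1.05% of all windows. GGGCGG, the GC box of Sp1, was present in 29 of 40 (72.5%), against 32.7%. The first 2 motifs overlapped in none of the member windows, and a match describes letters and not binding.

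Values are log2 signals normalized by RMA, so a difference of 1 is a doubling, and a gene passed a comparison at a Storey q-value of 0.01 or less in limma. Array medians ran between 6.23 and 6.42, and the SD over probe sets between 1.78 and 2.03. The 4 genes listed as CD8 T cell markers were Cd8a, Cd8b1, Cd3e and Cd3d. They averaged 10.75 to 11.77 in NKT-like, 10.55 to 10.94 in activated CD8 and 11.05 to 11.92 in naive CD8 arrays. The average of 8.95 to 9.25 in cultured CD4 arrays was held up by Cd3e and Cd3d. In those arrays Cd3e was 10.19 to 10.27, against 9.74 to 11.26 elsewhere, and Cd3d reached 12.79. Cd8a was 6.42 to 6.92 there, against 9.94 to 11.72 elsewhere, and Cd8b1 was at most 7.11, against 10.6 to 12.72. Cd4 was 9.82 to 10.10 in cultured CD4 arrays, against 6.55 to 7.20 elsewhere. The naive arrays also stood apart in markers of other spleen cells. The 5 measured of 6 B cell markers averaged 6.20 to 7.02 in NKT-like, 6.36 to 6.73 in cultured CD4, 7.37 to 7.57 in activated CD8 and 9.81 to 10.34 in naive CD8 arrays. In the naive arrays they ran from Cd79a, at 6.57 and 6.53, to Ighm, at 14.43 and 14.32. The 4 measured of 5 red cell precursor markers averaged 6.20 to 6.53 in the 10 stimulated arrays and 9.28 to 9.76 in the 2 naive ones. Among them Alas2 was flat, at 5.38 and 5.56 in naive and 5.18 to 5.59 in stimulated arrays. The part of other spleen cells in the differences from naive cells was not tested. Fewer cells that express a gene and less of its RNA per cell cannot be told apart in such bulk samples.

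Genes of both pathways were higher in all 3 stimulated groups than in naive CD8 cells. In NKT-like cells 23 of 37 members were higher, where 10.7% of all genes were, and 2 were lower, where 6.86% of all genes were. In cultured CD4 cells 27 were higher (11.6% of all genes) and 1 was lower (5.64%). In activated CD8 cells 17 were higher (4.43%) and 1 was lower (2.78%). The median member was 2.66-fold higher in NKT-like, 3.46-fold in cultured CD4 and 3.34-fold in activated CD8 cells than in naive CD8 cells, while the median over all genes was 0.963, 0.963 and 0.967. The mean over the 37 members was 9.58, 9.36, 9.40, 9.61 and 8.99 in NKT-like 1 to 5, 9.35, 9.73 and 9.79 in cultured CD4 1 to 3, 9.62 and 9.09 in activated CD8, and 7.99 and 7.77 in naive CD8. Every stimulated array was thus above both naive arrays. The 3 comparisons share the same 2 naive arrays, and the counts depend on them: without naive CD8 replicate 2 the members higher were 14 in NKT-like, 15 in cultured CD4 cells and 5 in activated CD8 cells, and without replicate 1 they were 19, 20 and 13. Without activated CD8 replicate 1, 7 members were higher in activated CD8 cells.

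**Figure D1:**
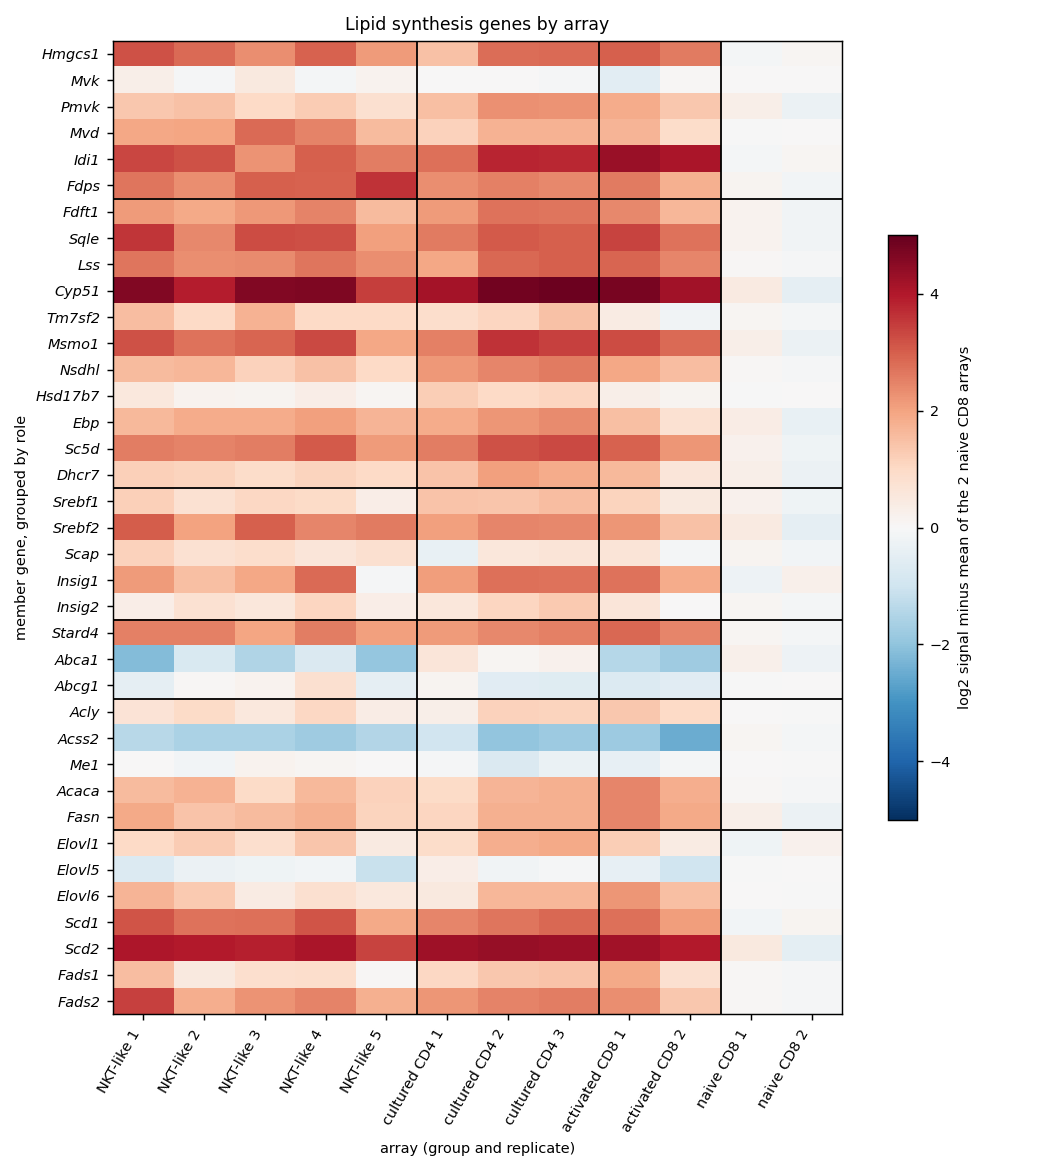
Log2 signal of each member gene (rows, grouped by role) in each of the 12 arrays (columns), minus the mean of the 2 naive CD8 arrays; red is above that mean and blue below. Cyp51, Scd2 and Idi1 are the darkest red rows in the stimulated arrays, and Acss2 is blue in all 10 of them.

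**Figure D2:**
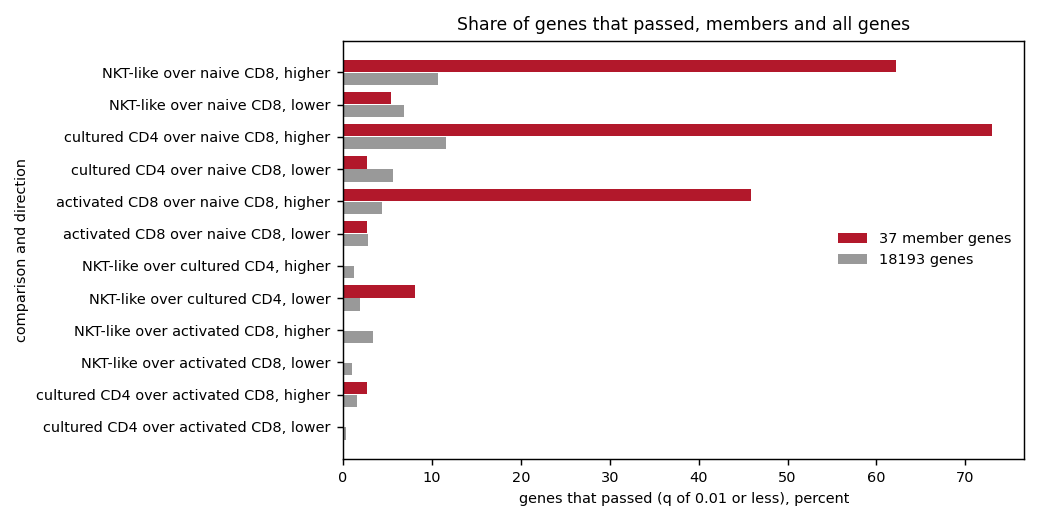
Percent of the 37 member genes (red) and of all 18193 genes (grey) that passed, for each comparison and direction. The red bars stand above the grey ones for higher calls over naive CD8 cells, at 62.2%, 73% and 45.9% in NKT-like, cultured CD4 and activated CD8 cells.

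The first steps, up to farnesyl diphosphate, were led by Idi1, Hmgcs1 and Fdps. Of 6 measured genes, 5 were higher than naive in NKT-like, 5 in cultured CD4 cells and 4 in activated CD8 cells. Idi1, the isomerase that makes the reactive isoprenoid unit, measured 10.94, 10.77, 9.86, 10.59 and 10.17 in NKT-like, 10.37, 11.39 and 11.38 in cultured CD4, 11.93 and 11.68 in activated CD8, and 7.50 and 7.70 in naive CD8 arrays. Both activated arrays lay above all other arrays, and both naive arrays below. Over naive cells Idi1 was 7.29-fold higher in NKT-like (q = 6.6e-05), 10.9-fold in cultured CD4 (q = 4e-05) and 18.4-fold in activated CD8 cells (q = 7.2e-05). Hmgcs1, which forms the precursor of mevalonate, measured 12.08, 11.76, 11.24, 11.84 and 11.02 in NKT-like, 10.39, 11.69 and 11.76 in cultured CD4, 11.91 and 11.51 in activated CD8, and 8.80 and 9.02 in naive CD8 arrays. Cultured CD4 replicate 1 was the lowest of the stimulated arrays, and none of them reached a naive value. The increase was 6.4-fold in NKT-like (q = 0.00026), 5.17-fold in cultured CD4 (q = 0.00093) and 6.97-fold in activated CD8 cells (q = 0.0019). Fdps, which makes farnesyl diphosphate, measured 9.42, 9.08, 9.72, 9.68 and 10.37 in NKT-like, 9.08, 9.27 and 9.13 in cultured CD4, 9.36 and 8.51 in activated CD8, and 6.89 and 6.60 in naive CD8 arrays. It was the 1 member that had its group's highest value in NKT-like 5, and it was 7.51-, 5.32- and 4.56-fold higher than naive in NKT-like, cultured CD4 and activated CD8 cells. Hmgcs1 did not pass without naive CD8 replicate 1 in cultured CD4 (q = 0.011) and activated CD8 (q = 0.015), without naive CD8 replicate 2 in either (q = 0.012 and q = 0.018), or without activated CD8 replicate 1 in activated CD8 (q = 0.02). Fdps in activated CD8 cells did not pass without naive CD8 replicate 1 (q = 0.011), naive CD8 replicate 2 (q = 0.031) or activated CD8 replicate 1 (q = 0.024). A second Fdps probe set gave only 1.16-, 1.28- and 1.14-fold, and the mean over both gave 2.95-, 2.61- and 2.28-fold.

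The kinases and the decarboxylase of mevalonate moved less evenly. Pmvk, a mevalonate pathway kinase, was 2.27-fold higher than naive in NKT-like, 4.06-fold in cultured CD4 and 3.03-fold in activated CD8 cells. Mvd, the decarboxylase, was 4.47-fold higher in NKT-like and 2.89-fold in cultured CD4 cells, and its 2.46-fold in activated CD8 cells did not pass (q = 0.033). Mvk, the first kinase, stayed between 7.28 and 8.26 in all 12 arrays and passed in none of these comparisons, with 95% intervals of -0.24 to 0.54, -0.44 to 0.41 and -0.69 to 0.25 on the log2 scale in NKT-like, cultured CD4 and activated CD8 cells over naive. A second Mvk probe set passed in NKT-like (1.72-fold) and in cultured CD4 cells (1.55-fold). Without naive CD8 replicate 2, Pmvk did not pass in NKT-like (q = 0.098) or activated CD8 (q = 0.068), nor Mvd in NKT-like (q = 0.011) or cultured CD4 cells (q = 0.041). Without naive CD8 replicate 1, Pmvk in activated CD8 (q = 0.012) and Mvd in cultured CD4 (q = 0.028) did not pass, and without activated CD8 replicate 1 Pmvk was at q = 0.05 there. Mvd in cultured CD4 cells also did not pass on the mean of its probe sets (2.4-fold, q = 0.014), nor without cultured CD4 replicate 2 (q = 0.021) or 3 (q = 0.019).

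In the squalene and sterol steps, 10 of 11 genes higher than naive in NKT-like, 11 of 11 in cultured CD4 cells and 7 of 11 in activated CD8 cells. Cyp51, the demethylase that opens the trimming of lanosterol, had the largest difference from naive of all members when each gene is read by its highest probe set. It measured 10.29, 9.59, 10.29, 10.36 and 9.15 in NKT-like, 9.85, 10.51 and 10.60 in cultured CD4, 10.41 and 9.88 in activated CD8, and 6.13 and 5.23 in naive CD8 arrays. The lowest stimulated array, NKT-like 5, was far above the higher naive one. Cyp51 was 19.2-fold higher than naive in NKT-like (q = 1.3e-05), 25-fold in cultured CD4 (q = 1.4e-05) and 22.2-fold in activated CD8 cells (q = 0.00012). The 3 stimulated groups overlapped with each other. Without the lower naive array, naive CD8 replicate 2, the fold was 14 in NKT-like, 18.3 in cultured CD4 cells and 16.2 in activated CD8 cells. Its 3 probe sets gave 1.52- to 19.2-fold in NKT-like cells, and their mean gave 5.87-, 8.64- and 9-fold in the same group order. On that mean Cyp51 ranked below Scd2, at 12.4-, 13.5- and 10-fold, and Idi1, at 9.91-, 14.1- and 25.8-fold. In NKT-like cells it also ranked below Sqle, at 7.48-fold, and Hmgcs1, at 5.91-fold.

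Msmo1, a methyl sterol oxidase, measured 10.14, 9.67, 9.88, 10.28 and 8.90 in NKT-like, 9.47, 10.57 and 10.38 in cultured CD4, 10.21 and 9.81 in activated CD8, and 7.24 and 6.69 in naive CD8 arrays. It was 7.02-, 9.05- and 8.27-fold higher than naive in NKT-like, cultured CD4 and activated CD8 cells. Sqle, the epoxidase of squalene, measured 11.13, 9.95, 10.81, 10.78 and 9.61 in NKT-like, 10.15, 10.61 and 10.54 in cultured CD4, 10.94 and 10.28 in activated CD8, and 7.73 and 7.37 in naive CD8 arrays. NKT-like 5 was again the lowest of its group, and the folds were 7.48, 7.38 and 8.35 in the same group order. Lss, which closes the ring to lanosterol, measured 10.23, 9.89, 9.93, 10.24 and 9.89 in NKT-like, 9.49, 10.44 and 10.55 in cultured CD4, 10.47 and 10.02 in activated CD8, and 7.62 and 7.52 in naive CD8 arrays. It was 5.53-, 6.02- and 6.39-fold higher, and cultured CD4 replicate 1 was its lowest stimulated array. Sc5d, a desaturase of the sterol ring, measured 9.46, 9.39, 9.46, 9.97 and 9.02 in NKT-like, 9.46, 10.10 and 10.20 in cultured CD4, 9.85 and 9.11 in activated CD8, and 7.12 and 6.68 in naive CD8 arrays. It was 5.89-, 8.12- and 5.98-fold higher, with no stimulated array near the naive ones. In activated CD8 cells Msmo1 and Sqle did not pass without activated CD8 replicate 1 (q = 0.014 for each) or naive CD8 replicate 2 (q = 0.02 and q = 0.018), and Sc5d without naive CD8 replicate 2 (q = 0.012). With the mean over all probe sets of the gene, NKT-like cells were 2.58-fold over naive for Msmo1, 2.13-fold for Lss and 1.9-fold for Sc5d, because 1 or more further probe sets of each lay near 1-fold.

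Fdft1, squalene synthase, was 4.14-, 5.71- and 4.09-fold higher than naive in NKT-like, cultured CD4 and activated CD8 cells. Its 4 probe sets disagreed: in NKT-like cells 2 were higher, 1 was lower and the range was 0.743- to 8-fold, and their mean gave 2.08-, 2.75- and 2.17-fold in the same group order. Ebp, a sterol isomerase, was 3.53-fold higher in NKT-like and 4.41-fold in cultured CD4 cells, and 2.18-fold in activated CD8 cells, where it did not pass (q = 0.017). Dhcr7, a reductase that ends cholesterol synthesis, was 2.1-fold higher in NKT-like and 3.46-fold in cultured CD4 cells, and did not pass at 2.18-fold in activated CD8 cells (q = 0.022). Tm7sf2, a sterol reductase, measured 7.87, 7.32, 8.05, 7.30 and 7.33 in NKT-like, 7.18, 7.39 and 7.77 in cultured CD4, 6.71 and 6.14 in activated CD8, and 6.42 and 6.21 in naive CD8 arrays. The activated and naive arrays overlapped and lay below all 8 expanded cultures. Tm7sf2 was 2.4-fold higher than naive in NKT-like (q = 0.002) and in cultured CD4 cells 2.19-fold higher (q = 0.0054), with 1.08-fold in activated CD8 cells (q = 0.55). Without naive CD8 replicate 2, Tm7sf2 (q = 0.048) and Dhcr7 (q = 0.12) did not pass in NKT-like cells, nor Tm7sf2 (q = 0.066) and Dhcr7 (q = 0.013) in cultured CD4 cells, nor Fdft1 in activated CD8 cells (q = 0.023). Fdft1 in activated CD8 cells also did not pass without activated CD8 replicate 1 (q = 0.016). Tm7sf2, without naive CD8 replicate 1, did not pass in NKT-like (q = 0.014) or cultured CD4 cells (q = 0.023), nor Dhcr7 in NKT-like cells (q = 0.012). Dhcr7 in NKT-like cells was at q = 0.011 without NKT-like replicate 1 or 4, and Tm7sf2 in cultured CD4 cells at q = 0.019 and q = 0.025 without cultured CD4 replicate 2 and 3.

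**Figure D3:**
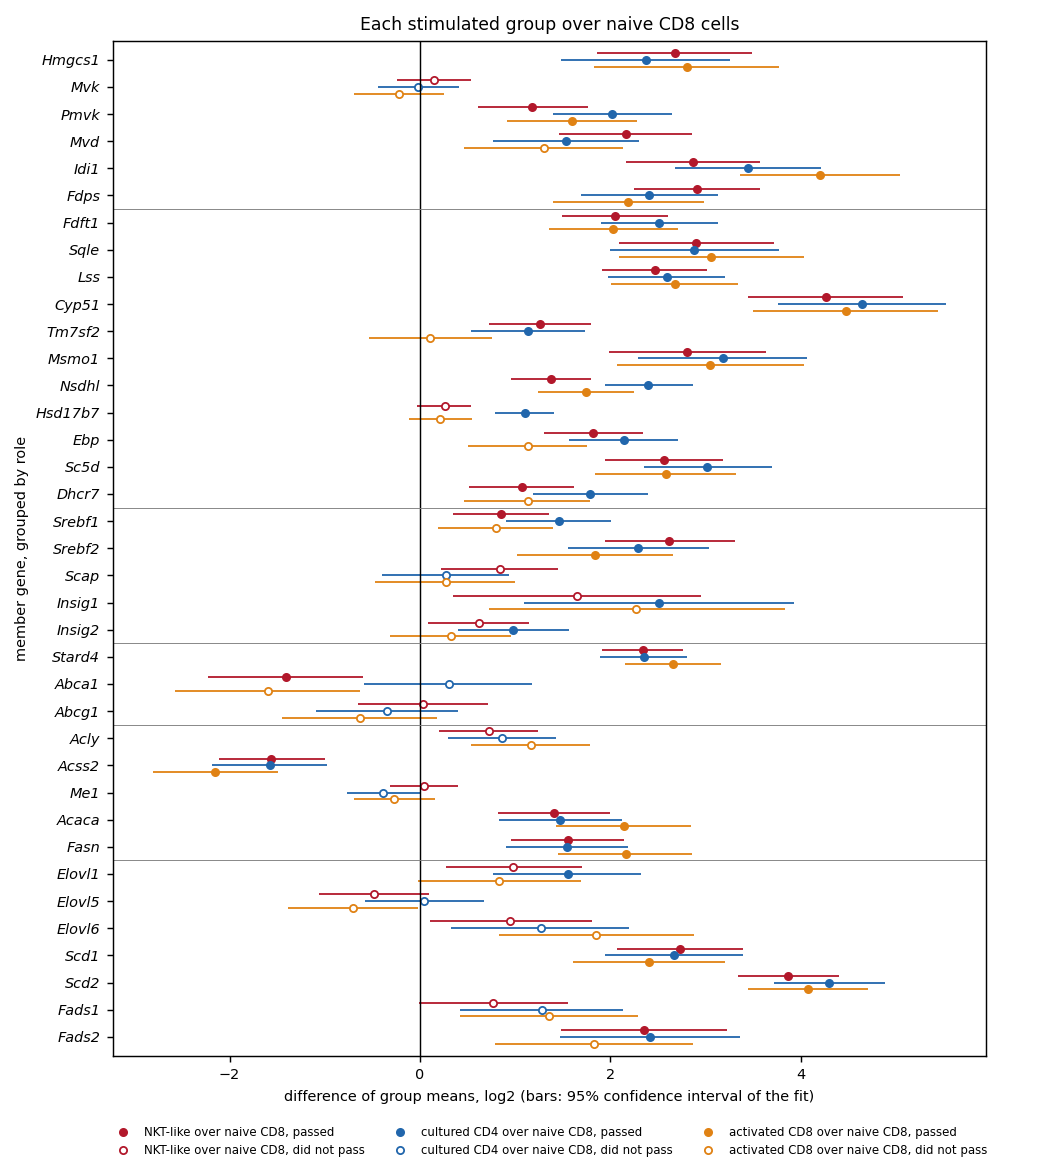
Difference of group means (log2, points) from naive CD8 cells with the 95% confidence interval of the fit (bars), for each member gene and for NKT-like (red), cultured CD4 (blue) and activated CD8 (orange) cells. Filled points passed the threshold q of 0.01 and open points did not; Cyp51 reaches 4.26, 4.64 and 4.47, and Acss2 lies at -1.56, -1.58 and -2.15.

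Of 5 regulators, 2 were higher than naive in NKT-like, 4 in cultured CD4 cells and 1 in activated CD8 cells, and Srebf2 was higher in each. Srebf2, which encodes the SREBP mainly tied to sterol genes, measured 11.12, 10.11, 11.07, 10.52 and 10.69 in NKT-like, 10.12, 10.51 and 10.49 in cultured CD4, 10.30 and 9.55 in activated CD8, and 8.51 and 7.65 in naive CD8 arrays. All stimulated arrays exceeded both naive ones. Srebf2 was 6.15-fold higher in NKT-like (q = 0.0001), 4.9-fold in cultured CD4 (q = 0.00043) and 3.59-fold in activated CD8 cells (q = 0.0063). Srebf1, whose products mainly drive fatty acid genes, measured 10.80, 10.35, 10.62, 10.56 and 9.94 in NKT-like, 11.04, 11 and 11.13 in cultured CD4, 10.72 and 10.07 in activated CD8, and 9.82 and 9.38 in naive CD8 arrays. It was 1.81-fold higher than naive in NKT-like (q = 0.0091) and in cultured CD4 cells 2.74-fold higher (q = 0.001), while 1.74-fold in activated CD8 cells did not pass (q = 0.06). The probe set does not separate the forms of SREBP that this gene encodes. Scap, the escort, measured 10.91, 10.52, 10.61, 10.35 and 10.53 in NKT-like, 9.35, 10.31 and 10.38 in cultured CD4, 10.38 and 9.64 in activated CD8, and 9.87 and 9.61 in naive CD8 arrays. Scap did not pass in any of the 3 comparisons, at 1.79-fold (q = 0.021), 1.21-fold (q = 0.23) and 1.2-fold (q = 0.44). Without naive CD8 replicate 2, Srebf2 did not pass in cultured CD4 (3.64-fold, q = 0.011) or activated CD8 cells (2.66-fold, q = 0.08), nor Srebf1 in NKT-like (q = 0.17) or cultured CD4 cells (q = 0.024). Srebf2 in activated CD8 cells also did not pass without activated CD8 replicate 1 (q = 0.059), and its q reached 0.011 at most when NKT-like 4 or 5, or replicate 2 or 3 of cultured CD4, was left out. Srebf1 in NKT-like cells passed in only 3 of 12 such fits, without NKT-like replicate 5 or either activated CD8 replicate. A second Srebf2 probe set gave 1.69-, 1.01- and 1-fold in NKT-like, cultured CD4 and activated CD8 cells, and the mean of both gave 3.22-, 2.23- and 1.9-fold, the last at q = 0.055.

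Insig1, a retention factor that is itself a target of SREBP, was the most variable regulator. It measured 7.79, 7.16, 7.58, 8.48 and 5.59 in NKT-like, 7.76, 8.41 and 8.38 in cultured CD4, 8.37 and 7.51 in activated CD8, and 5.43 and 5.90 in naive CD8 arrays. NKT-like 5 lay between the 2 naive arrays, and the other 9 stimulated arrays lay above them. Insig1 was 5.71-fold higher than naive in cultured CD4 cells (q = 0.0075), whereas 3.14-fold in NKT-like (q = 0.027) and 4.83-fold in activated CD8 cells (q = 0.041) did not pass. Without NKT-like 5, Insig1 was 4.24-fold higher than naive in NKT-like cells (q = 0.0016) and passed in activated CD8 cells (q = 0.0056). The difference between NKT-like and cultured CD4 cells was 0.55-fold and did not pass (q = 0.45). Insig2, the second retention factor, measured 7.72, 8.16, 7.97, 8.45 and 7.72 in NKT-like, 7.97, 8.47 and 8.68 in cultured CD4, 8.00 and 7.42 in activated CD8, and 7.50 and 7.27 in naive CD8 arrays. It was 1.98-fold higher than naive in cultured CD4 cells (q = 0.0094), and 1.53-fold in NKT-like (q = 0.037) and 1.25-fold in activated CD8 cells (q = 0.35) did not pass. In cultured CD4 cells Insig1 was at q = 0.047 without naive CD8 replicate 2 and 0.051 without replicate 1, and at 0.032 and 0.029 without cultured CD4 replicate 2 and 3. Insig2 there was at q = 0.099, 0.032, 0.038 and 0.04 in the same order, and both also failed at 0.01 to 0.013 when NKT-like replicate 1, 2 or 3 was left out, Insig2 also at 0.011 without NKT-like replicate 5.

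Of 3 genes of cholesterol transport and efflux, Stard4 was higher than naive in each stimulated group, Abca1 was lower in NKT-like cells and Abcg1 passed in none. Stard4, a carrier that moves sterol between membranes and is known as an SREBP target, measured 10.08, 10.08, 9.53, 10.11 and 9.61 in NKT-like, 9.68, 9.96 and 10.05 in cultured CD4, 10.41 and 10 in activated CD8, and 7.63 and 7.47 in naive CD8 arrays. It was 5.05-fold higher than naive in NKT-like (q = 9.1e-06), 5.1-fold in cultured CD4 (q = 1.7e-05) and 6.31-fold in activated CD8 cells (q = 4.9e-05), and all 3 of its probe sets were higher in each. Abca1, the pump that loads cholesterol onto lipoprotein, measured 6.20, 7.61, 6.86, 7.67 and 6.46 in NKT-like, 8.97, 8.47 and 8.58 in cultured CD4, 6.96 and 6.59 in activated CD8, and 8.61 and 8.14 in naive CD8 arrays. Cultured CD4 and naive arrays overlapped, and all NKT-like and activated arrays lay below them. Abca1 in NKT-like cells was 0.375-fold of naive (q = 0.0078), in cultured CD4 cells 1.23-fold (q = 0.26) and in activated CD8 cells 0.33-fold, which did not pass (q = 0.026). Abca1 in NKT-like cells did not pass without naive CD8 replicate 1 (q = 0.073) or 2 (q = 0.053), without NKT-like replicate 1, 3 or 5 (q = 0.012, 0.014 and 0.015), or without cultured CD4 replicate 2 or 3 (q = 0.012 for each). Of 3 Abca1 probe sets 1 passed, and the folds in NKT-like cells ran between 0.375 and 0.98; their mean gave 0.656-fold. Abcg1, a second export pump, measured 9.70, 10.18, 10.31, 10.92 and 9.67 in NKT-like, 10.28, 9.55 and 9.51 in cultured CD4, 9.43 and 9.56 in activated CD8, and 10.10 and 10.16 in naive CD8 arrays. It passed in no comparison, with 1.02-, 0.786- and 0.645-fold of naive.

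For fatty acid supply and chain making, 2 of 5 genes were higher and 1 lower than naive in each stimulated group. Acaca, the carboxylase that commits acetyl-CoA to fatty acids, was 2.66-fold higher in NKT-like (q = 0.0017), 2.78-fold in cultured CD4 (q = 0.0022) and 4.42-fold in activated CD8 cells (q = 0.0015). Fasn, fatty acid synthase, was 2.93-fold (q = 0.001), 2.91-fold (q = 0.0017) and 4.46-fold higher (q = 0.0014) in the same order. A second Acaca probe set gave 0.976-, 1.04- and 1.12-fold and did not pass, and the mean of both gave 1.61-, 1.7- and 2.22-fold. Acly, which makes acetyl-CoA from citrate in the cytosol, did not pass at 1.65-, 1.81- and 2.24-fold (q = 0.02, 0.015 and 0.015), although 1 of its 6 probe sets passed in each comparison. Its main probe set is of a kind that can bind several sequences. Me1, malic enzyme, which yields NADPH, did not pass at 1.03-, 0.766- and 0.831-fold. Acss2, which makes acetyl-CoA from acetate, went the other way: it measured 7.98, 7.79, 7.80, 7.57 and 7.91 in NKT-like, 8.40, 7.41 and 7.54 in cultured CD4, 7.55 and 6.88 in activated CD8, and 9.46 and 9.27 in naive CD8 arrays. Every stimulated array was below both naive ones. Acss2 was 0.34-fold of naive in NKT-like (q = 0.00069), 0.334-fold in cultured CD4 (q = 0.001) and 0.226-fold in activated CD8 cells (q = 0.0011), where the mean of its 3 probe sets gave 0.343-fold. Without naive CD8 replicate 1 it did not pass in NKT-like or cultured CD4 cells (q = 0.012 for each), and without replicate 2 it did not pass in NKT-like (q = 0.013), cultured CD4 (q = 0.012) or activated CD8 cells (q = 0.01, just above the threshold). Leaving out naive CD8 replicate 2, Acaca was at q = 0.04, 0.033 and 0.02 and Fasn at 0.038, 0.037 and 0.021 in the 3 groups. Acaca, without naive CD8 replicate 1, was at q = 0.015 in NKT-like and 0.014 in cultured CD4 cells. Without activated CD8 replicate 1, Acaca and Fasn were at q = 0.017 and 0.016 in activated CD8 cells. In cultured CD4 cells Acaca was at q = 0.013 and 0.012 without cultured CD4 replicate 2 and 3, and Fasn failed narrowly without replicate 2 (q = 0.01).

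In elongation and desaturation, 3 of 7 genes were higher than naive in NKT-like, 4 in cultured CD4 cells and 2 in activated CD8 cells, and none was lower. Among them were both measured Scd genes. Scd2, a desaturase that makes monounsaturated fatty acids, measured 12.48, 12.39, 12.33, 12.51 and 11.82 in NKT-like, 12.68, 12.80 and 12.73 in cultured CD4, 12.64 and 12.39 in activated CD8, and 8.92 and 7.95 in naive CD8 arrays. The stimulated arrays lay between 11.82 and 12.80, with a wide gap to both naive arrays. Scd2 passed at q = 1.2e-06 in NKT-like, 1.1e-06 in cultured CD4 cells and 1.1e-05 in activated CD8 cells, with log2 differences of 3.87 ± 0.24, 4.30 ± 0.26 and 4.08 ± 0.29 (standard error of the fit). The mean of its 3 probe sets gave 10-fold in activated CD8 cells, against 16.9-fold for the main one. Scd1, its paralog with the same reaction, measured 10.35, 9.93, 9.94, 10.34 and 9.11 in NKT-like, 9.65, 9.90 and 10.07 in cultured CD4, 9.94 and 9.29 in activated CD8, and 7.07 and 7.34 in naive CD8 arrays. It was 6.64-fold higher than naive in NKT-like, 6.35-fold in cultured CD4 and 5.31-fold in activated CD8 cells. Fads2, which starts the making of polyunsaturated chains, was 5.1-fold higher in NKT-like (q = 0.00085) and in cultured CD4 cells 5.34-fold higher (q = 0.0012), and 3.56-fold in activated CD8 cells did not pass (q = 0.019). Its neighbour in the reaction, Fads1, did not pass at 1.7-, 2.42- and 2.56-fold (q = 0.057, 0.015 and 0.042). A second Fads1 probe set was lower in NKT-like cells, at 0.626-fold. Scd1 in activated CD8 cells did not pass without activated CD8 replicate 1 (q = 0.017) or either naive CD8 replicate (q = 0.013 for each). Fads2 did not pass without naive CD8 replicate 2 in NKT-like (q = 0.023) or cultured CD4 cells (q = 0.02), and over all its probe sets the fold was 2.36 in NKT-like and 2.31 in cultured CD4 cells (q = 0.012).

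Of the elongases, Elovl1, which lengthens long saturated chains, measured 10.21, 10.46, 10.05, 10.58 and 9.65 in NKT-like, 10.12, 11.01 and 11.12 in cultured CD4, 10.45 and 9.63 in activated CD8, and 8.98 and 9.44 in naive CD8 arrays. It was 2.92-fold higher than naive in cultured CD4 cells (q = 0.0045), and 1.98-fold in NKT-like (q = 0.02) and 1.78-fold in activated CD8 cells (q = 0.14) did not pass. Of its 4 probe sets 2 passed in NKT-like and 4 in cultured CD4 cells. Elovl6, which lengthens the product of Fasn, measured 9.19, 8.82, 7.91, 8.32 and 8.01 in NKT-like, 7.99, 9.15 and 9.15 in cultured CD4, 9.69 and 9.02 in activated CD8, and 7.52 and 7.48 in naive CD8 arrays. All 10 stimulated arrays exceeded the naive ones, but 1.94-, 2.41- and 3.61-fold did not pass (q = 0.041, 0.022 and 0.017). Another of its 3 probe sets passed as higher in NKT-like cells (3.09-fold, q = 0.0099). Without cultured CD4 replicate 1, Elovl6 passed in cultured CD4 (3.15-fold, q = 0.0041) and activated CD8 cells (q = 0.0074). Elovl5, which lengthens polyunsaturated chains, measured 10.61, 10.99, 11.07, 11.15 and 10.16 in NKT-like, 11.61, 11.12 and 11.24 in cultured CD4, 10.88 and 10.28 in activated CD8, and 11.26 and 11.30 in naive CD8 arrays. It did not pass at 0.715-, 1.03- and 0.614-fold. The main probe sets of Elovl1 and Elovl5 can bind several sequences. Elovl1 in cultured CD4 cells did not pass without cultured CD4 replicate 2 (q = 0.023) or 3 (q = 0.021), or without naive CD8 replicate 1 (q = 0.041) or 2 (q = 0.024).

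**Figure D4:**
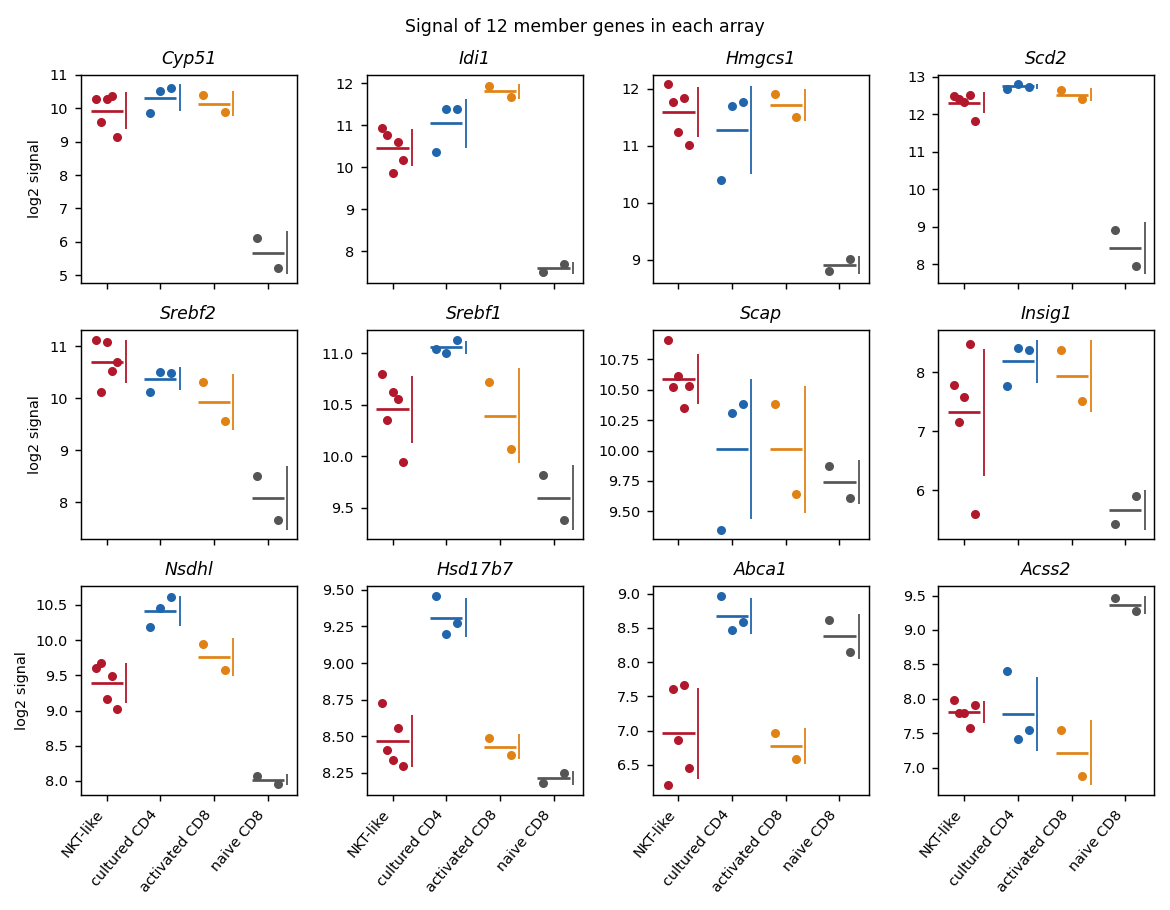
Log2 signal of 12 member genes in each array (points), with the group mean (horizontal bars) and SD (thin vertical lines), for NKT-like, cultured CD4, activated CD8 and naive CD8 cells; each panel has its own scale that does not start at 0. Nsdhl and Hsd17b7 are highest in the 3 cultured CD4 arrays, and Abca1 in the NKT-like arrays, at 6.20 to 7.67, lies below the cultured CD4 arrays at 8.47 to 8.97.

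Between NKT-like and cultured CD4 cells, which had the same culture, no member was higher by limma (1.24% of all genes) and 3 were lower (1.85%). At an unadjusted p under 0.05, 3 members were higher, Mvd, Scap and Me1, and 7 were lower, while the Benjamini-Hochberg adjustment called 0 higher and 2 lower. The share of all genes at that unadjusted threshold was not computed, here or for later counts, so such counts have no background beside them. The median member was 0.804-fold, against 0.997-fold over all genes, and 13 of 37 differences were above 0. Nsdhl, a sterol dehydrogenase, measured 9.61, 9.68, 9.17, 9.49 and 9.02 in NKT-like arrays, against 10.19, 10.46 and 10.61 in cultured CD4 arrays. The groups did not overlap, and the fold was 0.491 (q = 0.0044). Over naive cells at 8.07 and 7.96, Nsdhl was 2.6-fold higher in NKT-like, 5.29-fold in cultured CD4 and, at 9.95 and 9.57, 3.34-fold in activated CD8 cells. Hsd17b7, a sterol keto reductase that acts beside Nsdhl, measured 8.73, 8.41, 8.34, 8.56 and 8.30 in NKT-like arrays, against 9.46, 9.20 and 9.27 in cultured CD4 arrays, and the fold was 0.558 (q = 0.0012). It measured 8.49 and 8.37 in activated CD8 and 8.18 and 8.25 in naive CD8 arrays, so that it was 2.14-fold higher than naive in cultured CD4 cells (q = 0.00017), with 1.19-fold in NKT-like (q = 0.07) and 1.16-fold in activated CD8 cells (q = 0.28). Its 4 probe sets disagreed: over naive cells another one passed as higher in NKT-like cells (2.51-fold, q = 0.00065), and the range there was 0.72- to 2.51-fold. Against cultured CD4 cells 2 of the 4 passed as lower in the NKT-like cells. Abca1, with the values above, was 0.306-fold in NKT-like against cultured CD4 cells at q = 0.01, just inside the threshold. That Abca1 call ended in 10 of the 12 fits that left out 1 array, at q = 0.013 to 0.045, among them those without cultured CD4 replicate 1 (q = 0.035), 2 (q = 0.035) or 3 (q = 0.045). Nsdhl did not pass without NKT-like replicate 3 (q = 0.011) or cultured CD4 replicate 2 (q = 0.028) or 3 (q = 0.033), and Nsdhl in NKT-like and in activated CD8 cells over naive did not pass without naive CD8 replicate 2 (q = 0.01 and q = 0.011). Hsd17b7 passed in all 12 fits.

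Between NKT-like and activated CD8 cells, no member passed in limma in either direction, where 3.36% of all genes were higher and 1% were lower. At an unadjusted p under 0.05, for which no share of all genes was computed, 6 were higher and 4 lower. The Benjamini-Hochberg adjustment called none. The median log2 difference was 0.02 as deposited and -0.15 after quantile normalization, so its direction depends on the scaling. The 2 members nearest the threshold were Tm7sf2 at 2.22-fold (q = 0.012) and Idi1 at 0.396-fold (q = 0.02), which passed without cultured CD4 replicate 1 (q = 0.0073). Of the largest members over naive cells, Cyp51 had a 95% interval of -1.02 to 0.60 on the log2 scale for this difference, Scd2 -0.74 to 0.32 and Sqle -0.97 to 0.66. These intervals leave room for differences of close to 1 log2 unit. Between cultured CD4 and activated CD8 cells, 1 member was higher (1.53% of all genes), Hsd17b7 at 1.85-fold (q = 0.0044), with 9 higher at an unadjusted p under 0.05, and none was lower in limma (0.319% of all genes), with 1 lower at an unadjusted p under 0.05, Acaca, and none after Benjamini-Hochberg adjustment. Abca1 was 3.72-fold in that comparison and did not pass (q = 0.02). Hsd17b7 there did not pass without cultured CD4 replicate 1, 2 or 3 (q = 0.011, 0.015 and 0.018) or activated CD8 replicate 2 (q = 0.052).

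**Figure D5:**
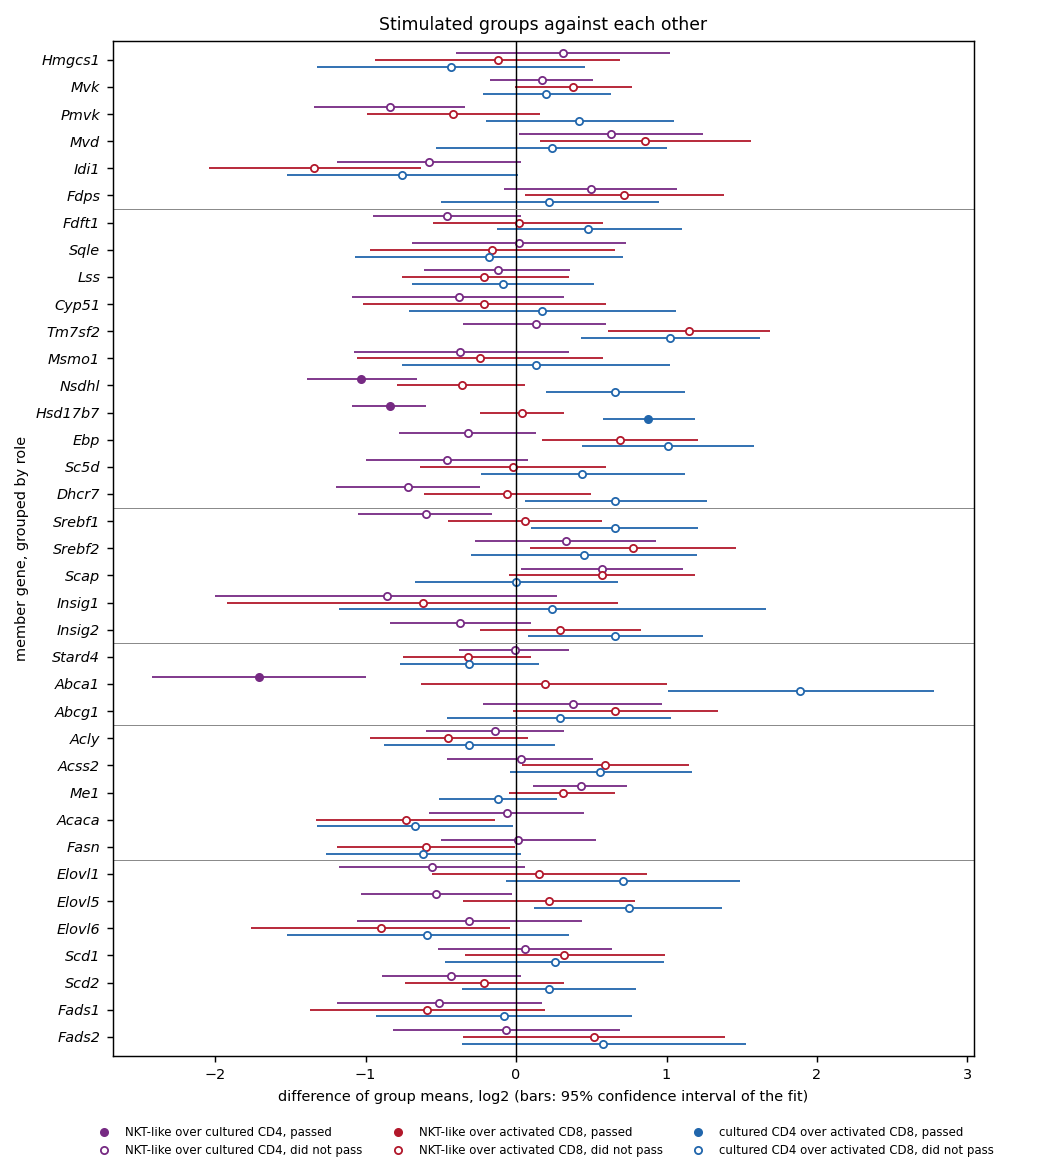
Difference of group means (log2, points) with the 95% confidence interval of the fit (bars) for each member gene, in NKT-like over cultured CD4 (purple), NKT-like over activated CD8 (red) and cultured CD4 over activated CD8 cells (blue). Filled points passed the threshold q of 0.01: Nsdhl at -1.03, Hsd17b7 at -0.84 and Abca1 at -1.71 in NKT-like over cultured CD4 cells, and Hsd17b7 at 0.88 in cultured CD4 over activated CD8 cells.

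Within groups, single arrays were high or low for many members at once. NKT-like 5 had the lowest value of its group in 23 of 37 members, cultured CD4 replicate 1 in 29, activated CD8 replicate 2 in 34 and naive CD8 replicate 2 in 27. In a group of 2 arrays, 1 of them is the lowest for every gene. Such counts were not made over all genes, so they need not be particular to the members. The spread of Insig1 was the widest in NKT-like arrays, at 7.32 ± 1.08, and that of Dhcr7 the narrowest, at 8.41 ± 0.10 (mean ± SD, n = 5). Naive CD8 cells had the lowest group mean for 31 of 37 members. The highest group mean fell to cultured CD4 cells for 17, activated CD8 cells for 10, NKT-like cells for 9 and naive CD8 cells for 1. The order of the group means was not counted over all genes either.

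Genes around the pathway were followed in lists by role, and their counts stand beside 10.7%, 11.6% and 4.43% of all genes higher and 6.86%, 5.64% and 2.78% lower in NKT-like, cultured CD4 and activated CD8 cells over naive. In the shorter lists a single gene moves the share by much, and no list was tested against these shares. Of 7 measured genes of the isoprenoid branch, 2 were higher than naive in NKT-like, 2 in cultured CD4 cells and 1 in activated CD8 cells, led by Pdss2, a subunit of the enzyme that makes the ubiquinone tail, at 2.07-, 1.81- and 2.31-fold. None of 4 measured SREBP processing genes passed in limma over naive cells, with 1 higher in NKT-like, 1 higher in cultured CD4 and 1 lower in activated CD8 cells at an unadjusted p under 0.05. In the liver X receptor axis 1 of 6 genes was higher and 1 lower in each group. Mylip, a ubiquitin ligase induced by those receptors, measured 8.82, 8.99, 8.75, 8.94 and 8.66 in NKT-like, 8.41, 7.83 and 7.81 in cultured CD4, 7.75 and 7.78 in activated CD8, and 11.20 and 11.26 in naive CD8 arrays. It was 0.19-, 0.108- and 0.0904-fold of naive. Lpcat3, which puts polyunsaturated chains into phospholipids, was 2.96-, 3.64- and 2.64-fold higher. Of 6 measured storage and transport genes, Npc1, which exports cholesterol from lysosomes, was 4.23-fold higher in NKT-like cells (q = 0.00023). Lipa, the lysosomal lipase, was 0.528-fold of naive in NKT-like and 0.421-fold in cultured CD4 cells. The 2 naive arrays lay apart for Npc1, at 7.13 and 5.99, and for Lpcat3, at 8.95 and 7.97. Calls of the genes in these lists were not followed through the fits that left out 1 array.

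Of 15 measured genes of lipid assembly, 6 were higher and 1 lower in NKT-like, 7 higher and 1 lower in cultured CD4, and 2 higher in activated CD8 cells. Hsd17b12, which reduces the growing chain in elongation, was 4.93-, 5.75- and 3.21-fold higher, and Acsl4, which charges polyunsaturated fatty acids with CoA, 3.09-, 3.83- and 4.25-fold. Elovl7 was the lower one, at 0.593-fold of naive in NKT-like and 0.67-fold in cultured CD4 cells. Of 14 measured genes of fatty acid oxidation, 5 were higher in NKT-like and 6 in cultured CD4 cells, and none passed in activated CD8 cells by limma, where 1 was higher at an unadjusted p under 0.05. None was lower in any of the 3 groups, at an unadjusted p under 0.05 either. Acadl, an acyl-CoA dehydrogenase of long chains, was 3.02-fold higher in NKT-like and 2.17-fold in cultured CD4 cells. In lipid uptake, 1, 2 and 2 of 7 genes were higher in NKT-like, cultured CD4 and activated CD8 cells. Fabp5, a fatty acid carrier, measured 10.63, 10.60, 8.57, 10.30 and 9.85 in NKT-like, 11.75, 11.40 and 11.46 in cultured CD4, 11.84 and 11.59 in activated CD8, and 7.41 and 8.07 in naive CD8 arrays. It was 4.76-, 13.9- and 15.7-fold higher than naive in that order.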

How the data were processed

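RNA of 12 samples was hybridised to 12 Affymetrix arrays. The authors deposited log2 signals per probe set, normalized by RMA; its version, and whether all arrays were normalized together, are not given in the sources used here. Of 45101 probe sets, 64 controls were left out and 45037 tested; 34945 carry 1 gene symbol, 932 several and 9160 none in the platform annotation. The 4 groups, taken from the sample titles, were fitted together in limma 3.58.1 (R 4.3.3; 8 residual and 3.03 prior degrees of freedom), and Storey q-values were computed per comparison over all probe sets. A member passed where q did not exceed 0.01. The probe set with the highest mean stands for a gene, also in the background of 18193 genes. Folds are 2 to the power of a log2 difference. The number of arrays limits the precision. The paper calls the expanded cultures independent. For the other samples, p-values measure only the spread between these samples, which may be technical. Same-numbered samples were not treated as paired.

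All members are accounted for. Array values are printed for the 12 or so passing members with the largest differences, members passing in NKT-like over cultured CD4 cells, the 5 regulators, the Scd and Elovl paralogs and both efflux genes; Acss2, Fabp5, Mylip and Tm7sf2 were added after their values were seen. The members and lists were chosen with earlier results of these data known. Alternatives were fits of just the 2 groups compared, a q of 0.05, Benjamini-Hochberg adjustment, array weights, a low signal filter (25425 probe sets with a mean of 6.30 or more), quantile normalization, the mean over a gene's probe sets, a replicate block, each array left out and, added after seeing the data, arrays scaled to equal spread. The fit was tested on simulated data.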

Additional observations from a re-analysis of the deposited data

Results flagged for a closer look

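Scd2 in NKT-like replicate 5 measured 11.82, apart from the other NKT-like arrays at 12.33 to 12.51. Its gap to the nearest array was 0.74 of the range of the group. It was 1 of 37 members tested in the NKT-like arrays, and chance alone is known to give some such gaps. The value remains above both naive CD8 arrays, at 8.92 and 7.95.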

How the results depend on the processing

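Of 75 calls of a member in a comparison, 32 held in every alternative, 35 held whichever array was left out, and 0 reversed. Of 147 pairs that did not pass, 20 passed at q of 0.01 in some alternative. Leaving out 1 array gave 14 to 24 members higher in NKT-like over naive CD8 cells (23 with all arrays), 15 to 29 in cultured CD4 over naive (27), 5 to 20 in activated CD8 over naive (17) and 0 to 2 in cultured CD4 over activated CD8 (1). Members lower were 0 to 2 in NKT-like over naive (2), 0 to 1 in cultured CD4 over naive (1) and in activated CD8 over naive (1), 1 to 3 in NKT-like over cultured CD4 (3) and 0 to 1 in NKT-like over activated CD8 (0). The lowest counts of higher members over naive came without naive CD8 replicate 2.

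With the 2 groups fitted alone, 1 member was lower in NKT-like over naive, 7 were higher and 0 lower in activated CD8 over naive, and 0 were higher in cultured CD4 over activated CD8. Benjamini-Hochberg adjustment left 1 lower in NKT-like over naive. Array weights gave 6 higher in activated CD8 over naive, 5 lower in NKT-like over cultured CD4 and 0 higher in cultured CD4 over activated CD8. At a q of 0.05, 2 were lower in activated CD8 over naive, 1 higher and 1 lower in NKT-like over activated CD8, and 3 higher in cultured CD4 over activated CD8. Tm7sf2 was higher in NKT-like over activated CD8 (1 member) with the low signal filter, the mean of probe sets and equal spread, a setting chosen after seeing the data. Idi1 was lower there (1 member) with quantile normalization and equal spread, and both of these gave 0 higher in cultured CD4 over activated CD8. The causes were not tested.

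Deviations from the group mean had a correlation over 0.1 in 3 of 13 same-numbered pairs, with a range of -0.5 to 0.28. In a group of 2 arrays the deviations mirror each other, so this check cannot decide whether the numbers pair the samples. With a replicate block, 16 members were higher in NKT-like, 19 in cultured CD4 cells and 11 in activated CD8 over naive, 1 was lower in NKT-like over naive, 0 were lower in NKT-like over cultured CD4 and 0 higher in cultured CD4 over activated CD8.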
